A study of Mus musculus with 18 samples.

Results

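Type 1 lymphocytes of the metastasis-free liver (MFL) were compared as 2 sorted populations, ILC1 and NK cells. Of the 18 samples of the series, 12 are lymphocytes, and the comparison used the 6 that are labelled as MFL ILC1 (3 samples) or MFL NK cells (3 samples). All genes that passed a filter on low counts entered it, so no gene was chosen by its values. The mice were females and carried liver metastases grown from MC38, a mouse colon adenocarcinoma line syngeneic with C57BL/6 mice that was injected into the spleen. The lymphocytes were taken 20 days later from liver parenchyma without metastases, which was smashed and filtered without enzyme. Both populations were lin- CD45+ NKp46+ cells. ILC1 were CD49a+ CD49b- and NK cells CD49a- CD49b+. Neither group carried a genetic change or a treatment that the other lacked. The study pooled 6 to 8 livers for a sort and gives 3 independent sorts, but the labels do not tie the replicate numbers to those sorts. The p-values therefore measure the spread between 3 pooled samples per group. Every animal bore metastases elsewhere in its liver, and livers of tumor-free mice are not part of the comparison.

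NK cells and ILC1 are innate lymphocytes that carry NKp46 and make IFN-γ without rearranged antigen receptors. NK cells circulate, depend on the T-box factor Eomes and kill target cells with perforin and granzymes. They carry Ly49 receptors, which bind MHC class I. ILC1 reside in tissue, and in the liver they lie in the sinusoids, carry the integrin CD49a, the chemokine receptor CXCR6 and the death ligand TRAIL, and depend on the transcription factor Hobit, which Zfp683 encodes. T-bet, encoded by Tbx21, acts in both cells.

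Depth was similar in the 6 libraries, with 10078965 to 13169511 estimated counts each. The genes of the sorted proteins are given as a description only. Itga1, which encodes CD49a, had 683, 682 and 661 CPM in ILC1 and 20.8, 7.11 and 7.6 CPM in NK cells (CPM, TMM-scaled counts relative to library size, for replicates 1, 2 and 3). Itga2, which encodes CD49b, had 54.5, 32.2 and 25.9 CPM in ILC1 and 378, 307 and 385 CPM in NK cells. Ncr1, which encodes the NKp46 used for both sorts, had 898, 926 and 1067 CPM in ILC1 and 1116, 1038 and 888 CPM in NK cells. The transcripts of the sorted proteins thus followed the gates in every library. Of 8 NK cell markers, 6 were lower in ILC1, and their summed level was 1530 to 1830 CPM in ILC1 and 4400 to 5498 CPM in NK cells. Of 8 ILC1 markers, 6 were higher in ILC1, with sums of 3203 to 3472 CPM against 1520 to 2102 CPM. The lists share Ncr1 and Klrb1c, which made up most of the ILC1 sum of NK cell markers, and each holds a gene of the sort. Without these, the remaining 5 NK cell markers, each called lower, summed to 70.3 to 110.2 CPM in ILC1 and 2522 to 3062 CPM in NK cells, and the remaining 5 ILC1 markers, each called higher, to 1077 to 1099.8 CPM against 19.6 to 23.3 CPM. Replicate 1 of both populations stood apart from the others. Genes of mitochondria, ribosomal RNA and small RNAs together took 15.2% of the counts of ILC1 replicate 1 and 13.4% of those of NK replicate 1, against 4.85% to 9.85% in the other libraries, and these 2 libraries had the fewest genes with 10 or more counts (11651 and 11780, against 12503 to 13218).

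ILC1 and NK cells differed in 1228 of 12779 genes tested (9.61%), at an adjusted p under 0.1 in edgeR's quasi-likelihood test. Of these, 624 (4.88%) were higher in ILC1 and 604 (4.73%) were lower, so the difference was close to evenly split. In 869 of the called genes the change exceeded 1 on the log2 scale, and in 1226 the samples of the groups did not overlap, against 3373 (26.4%) of all genes tested. Protein-coding genes gave 584 of the genes called higher and 572 of those called lower. The levels are per sorted RNA, and in bulk samples fewer cells of a type and less RNA per cell cannot be told apart. Principal component 1, with 57.4% of the variance, separated the populations, and component 2, with 20.9%, separated ILC1 replicate 1 (at −26.9) from ILC1 replicates 2 and 3 (15.5 and 19.4). On log2 CPM, component 2 (26.8%) placed replicate 1 of both populations together, NK at −80.3 and ILC1 at −76.7, apart from the other libraries (17.6 to 65.6). The spread between replicates was wider in ILC1 (biological coefficient of variation 0.603) than in NK cells (0.469). The number of calls fell to 751 without NK replicate 2, rose to 2129 without replicate 1 of both populations, and fell to 416 when the 6 LM samples, from the metastases, shared the estimate of spread. Every one of the 1228 genes that was tested under an alternative kept its direction.

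**Figure D1:**
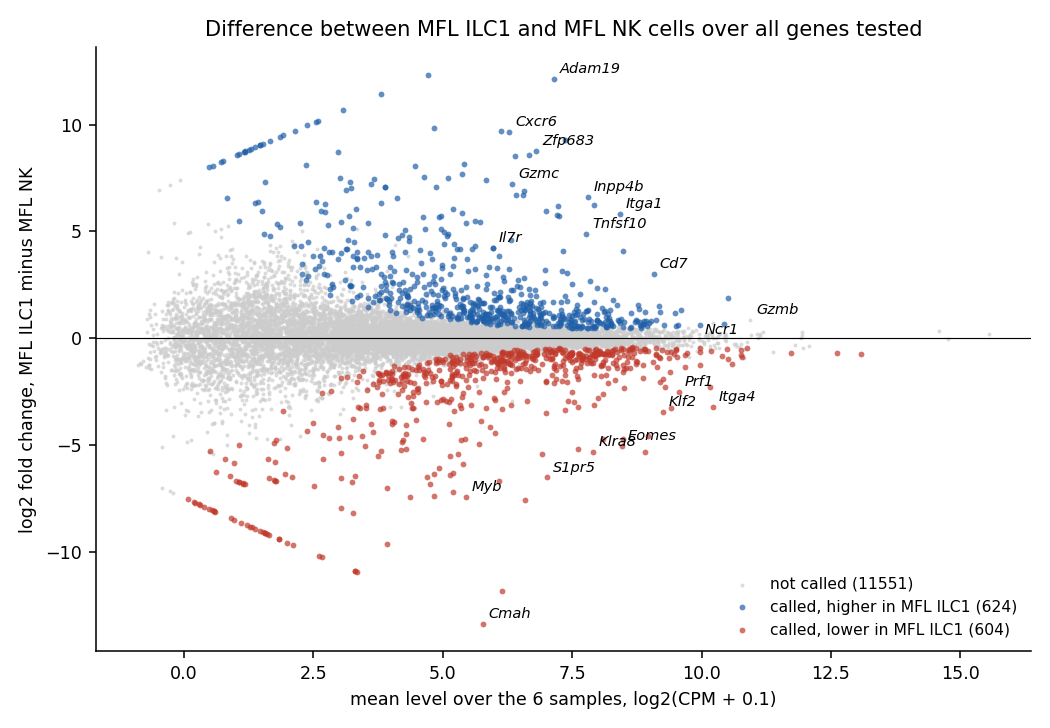
Each point is 1 of the 12779 genes tested. The x axis gives log2(mean CPM + 0.1), with the mean taken over the 6 samples. The y axis gives the log2 fold change of MFL ILC1 over MFL NK cells. Genes called higher (624) are blue, genes called lower (604) red and the others gray, and Adam19 and Cmah stand out at the opposite ends of the y axis among the genes labelled by name.

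The widest differences concerned genes that were near 0 in one population. Adam19, a membrane metalloprotease, had 288, 306 and 259 CPM in ILC1 and 0, 0.0757 and 0.0752 CPM in NK cells, at least 1208-fold higher in ILC1 (ENSMUSG00000011256.17, chr11:45946775-46038172 of GRCm39). This and the bounds that follow are computed against 3 counts per library in the population near 0. Tmem273, a transmembrane protein, was at least 224-fold higher, with 53.7, 52.1 and 52.4 CPM in ILC1 and 0 counts in every NK library. Arnt2, a partner of basic helix-loop-helix factors, was at least 118-fold higher, with 30.9, 24.8 and 28 CPM in ILC1. Each of these genes was level among the 3 ILC1 libraries, so the bound does not rest on one of them. Cdh1, which encodes E-cadherin, a ligand of KLRG1, was at least 241-fold higher, with 75, 48.1 and 47.1 CPM in ILC1 and 0, 0.151 and 0 CPM in NK cells. Rln3, which encodes a relaxin peptide, was at least 50.1-fold higher, with 10.2, 12.3 and 12.9 CPM in ILC1. Plekhd1 was at least 65.7-fold higher. Atp8a2 and Mmp9 had more than 3 counts in at least 1 NK library and have a fitted change. Atp8a2, a phospholipid flippase, had 354, 319.5 and 308 CPM in ILC1 and 0, 0.378 and 1.13 CPM in NK cells (log2 fold change 9.27 ± 0.53, adjusted p = 1.58e-05). Mmp9, a secreted gelatinase, had 108, 153 and 159 CPM in ILC1 and 0, 0.454 and 0 CPM in NK cells (log2 fold change 9.72 ± 0.62, adjusted p = 2.51e-05). Cxcr6 and Zfp683, described below, complete the 10 widest differences in this direction among protein-coding genes with a mean of at least 10 CPM in ILC1. Of these 10 genes, Rln3 alone lost its call in the fit with the LM samples (adjusted p = 0.103).

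In the other direction, Cmah had 0 counts in every ILC1 library and 84.7, 110.2 and 132 CPM in NK cells (ENSMUSG00000016756.18, chr13:24511222-24661360). It encodes the enzyme that makes N-glycolylneuraminic acid, a sialic acid of cell-surface glycans, and was at least 424-fold lower in ILC1. Cma1, which encodes a chymase-type serine protease, had 196, 129.6 and 97.3 CPM in NK cells and 0, 0 and 0.0969 CPM in ILC1, at least 547-fold lower in ILC1. Rhpn1 was at least 118-fold lower, with 26.3, 29.3 and 35.5 CPM in NK cells. Elovl7, a fatty acid elongase, Wdr95, Cdh22, a cadherin, Anxa8, an annexin, and Tmem151a had 0 counts in every ILC1 library, with bounds of 78-, 76.1-, 75.7-, 48.5- and 46.4-fold. Angpt1, a ligand of the receptor Tie2, was at least 74.1-fold lower and Sema6a, a semaphorin, at least 62.7-fold. The depth sets these bounds, since a count of 0 in ILC1 was taken as 3. Over all genes called, 38 had 3 counts or fewer in every NK library and 57 in every ILC1 library.

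Transcription factors divided the populations. Of 43 tested, 9 were higher and 13 lower in ILC1 (51.2% called, against 9.61% of all genes tested). The median log2 fold change was −0.25 against −0.01 over all genes. Zfp683 (Hobit) had 218, 242 and 209 CPM in ILC1 and 0.0847, 0.53 and 0.828 CPM in NK cells, absent to near absent in NK cells and level among the ILC1 libraries (log2 fold change 8.79 ± 0.40, adjusted p = 6.48e-06, chr4:133781149-133786327). Eomes had 40.4, 13.5 and 7.75 CPM in ILC1 and 584, 739.8 and 738 CPM in NK cells, and even its highest ILC1 library, replicate 1, lay far below every NK library (log2 fold change −5.06 ± 0.55, adjusted p = 0.000535, chr9:118307280-118315200). Its T-box relative Tbx21 differed little, with 324, 389 and 350.3 CPM in ILC1 and 473, 504 and 497 CPM in NK cells (log2 fold change −0.47 ± 0.14, adjusted p = 0.0779). That call was lost when any 1 of the 6 libraries was left out (adjusted p = 0.108 to 0.294), without the filter on low counts (adjusted p = 0.118) and in the fit with the LM samples (adjusted p = 0.61). Zeb2, a zinc finger repressor that acts late in NK cell maturation, had 37.3, 29.3 and 12 CPM in ILC1 and 715, 618 and 746 CPM in NK cells (log2 fold change −4.72 ± 0.38, adjusted p = 9.12e-05). Myb, a proto-oncogene of lymphoid progenitors, had 0, 1.35 and 0 CPM in ILC1 and 50.7, 100.5 and 108 CPM in NK cells and was 0 in 2 ILC1 libraries (log2 fold change −7.43 ± 0.90, adjusted p = 0.000993). Klf2, which drives expression of S1pr1 in lymphocytes, had 126, 118 and 63.2 CPM in ILC1 and 1319, 1128 and 909 CPM in NK cells (log2 fold change −3.45 ± 0.28, adjusted p = 0.000103). Ahr, the aryl hydrocarbon receptor, which maintains liver ILC1, was higher, with 111, 107 and 104 CPM in ILC1 and 5.68, 17.6 and 9.1 CPM in NK cells (log2 fold change 3.31 ± 0.38, adjusted p = 0.000678). Bcl11b, Hic1, Tox, Foxo3, Rora, Maf and Zeb1 made up the other members called higher, and Prdm1, Klf3, Lef1, Runx1, Runx2, Elf4, Bach2 and Irf8 the others called lower. Ets1 and Bhlhe40 were high in both populations and were not called, with changes of −0.16 ± 0.14 and −0.32 ± 0.14. Tcf7, which encodes TCF-1, had 231, 81.1 and 71.2 CPM in ILC1 and 151, 209 and 183 CPM in NK cells and was not called (log2 fold change −0.50 ± 0.40, adjusted p = 0.62). ILC1 replicate 1 lay above every NK library and the other ILC1 libraries below, and without it Tcf7 was called lower (−1.25, adjusted p = 0.0047). With all 6 libraries it was called lower in limma-voom (adjusted p = 0.000664) and without the filter (adjusted p = 0.0989). Without NK replicate 3 the factors called lower numbered 8, and the fit with the LM samples left 5 called higher.

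Receptors for leaving and entering tissue were called in both directions. Of 23 egress and chemotaxis genes, 8 were higher and 8 lower (69.6% called, against 9.61% of all genes tested, median 0.29). All 3 sphingosine-1-phosphate receptors tested were lower in ILC1. S1pr1, which leads lymphocytes out of tissue toward blood and lymph, had 0.597, 0.0752 and 0 CPM in ILC1 and 34.1, 49.6 and 39.6 CPM in NK cells (log2 fold change −7.44 ± 0.79, adjusted p = 0.000483). S1pr5, its counterpart on NK cells, had 0.171, 3.69 and 4.56 CPM in ILC1 and 295, 262 and 215 CPM in NK cells (log2 fold change −6.52 ± 0.65, adjusted p = 0.000339). Cmklr1, the receptor for chemerin, had 0, 2.11 and 0.775 CPM in ILC1 and 259, 165 and 148 CPM in NK cells (log2 fold change −7.56 ± 0.68, adjusted p = 0.000171). For all of these, the lowest NK library exceeded the highest ILC1 library many times over. Cxcr6, a receptor for the sinusoidal ligand CXCL16, had 126, 154 and 186 CPM in ILC1 and 0.0847, 0.454 and 0 CPM in NK cells (log2 fold change 9.66 ± 0.53, adjusted p = 1.22e-05, chr9:123635534-123640825). Cxcr3, a receptor for interferon-induced chemokines, had 81.8, 139 and 155 CPM in ILC1 and 15, 22.1 and 14.2 CPM in NK cells (log2 fold change 2.87 ± 0.30, adjusted p = 0.000435). Both chemokine receptors were lowest in ILC1 replicate 1 among the ILC1 libraries, without overlap with NK cells. Gpr34, a receptor for lysophosphatidylserine, was higher, with 25.4, 31.2 and 45.8 CPM in ILC1 and 1.02, 0.0757 and 0 CPM in NK cells (log2 fold change 6.56 ± 0.99, adjusted p = 0.00351), a call lost in the fit with the LM samples (adjusted p = 0.108). Gpr183, Gpr55, Ptger4, Rgs1 and Rgs2 were also called higher, and S1pr4, Cx3cr1, Cxcr4, Ccr2 and Rgs16 lower. P2ry10 was not called (−0.51 ± 0.21). Without NK replicate 2, 5 members were called lower, and in the fit with the LM samples 3 were called higher and 6 lower.

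Of 28 integrin and adhesion genes, 9 were higher and 12 lower (median −0.47), Itga1 and Itga2 among them by the sort. The share called was 75%, against 9.61% of all genes tested. Itgam, which encodes CD11b and marks mature NK cells, had 31.7, 49.9 and 39.5 CPM in ILC1 and 1208, 889 and 796 CPM in NK cells (log2 fold change −4.58 ± 0.25, adjusted p = 1.13e-05). Mcam, an adhesion molecule of the immunoglobulin superfamily, had 0.0853, 1.81 and 0.775 CPM in ILC1 and 93.1, 65.2 and 59.8 CPM in NK cells (log2 fold change −6.30 ± 0.66, adjusted p = 0.000457). ILC1 replicate 1 was the lowest ILC1 library for Itgam and Mcam, farther from NK cells than the other ILC1 libraries. Itga4, Itga5, Itga6, Itgb1, Itgb2, Spn, Cd9 and Alcam were among the others called lower, and Cdh1, Epcam, Itgav, Itgax, Itgad, Itgb3, Cd44 and Cd93 higher. Itgal, the α chain of LFA-1, and Selplg were not called (−0.44 ± 0.16 and −0.50 ± 0.16). Selplg lay near the threshold, and with all 6 libraries it was called lower in DESeq2 (adjusted p = 0.0183), limma-voom (0.02) and 3 other settings of the filter or gene set (0.0874 to 0.0891). It was also called lower without NK replicate 3 (−0.60, adjusted p = 0.0929). Itgal was called lower in DESeq2 (adjusted p = 0.0506) and limma-voom (0.0469). Without ILC1 replicate 3, 5 members were called higher, and in the fit with the LM samples 4.

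**Figure D2:**
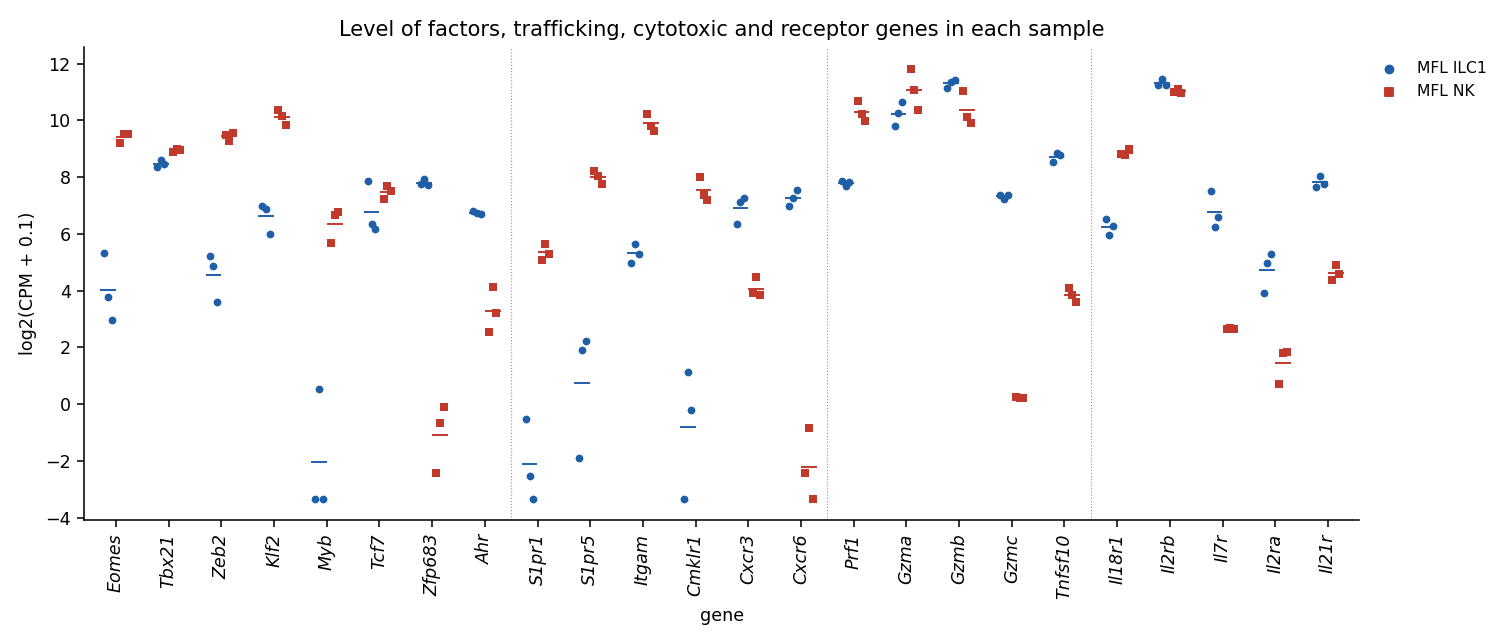
Level of each gene in each sample as log2(CPM + 0.1), with 1 blue point for each of the 3 MFL ILC1 and 1 red square for each of the 3 MFL NK libraries and a line at the group's mean on that scale. Zfp683 and Cxcr6 lie above 100 CPM in every ILC1 library and below 1 CPM in every NK library, S1pr1 shows the opposite order, and the groups overlap for Gzma and Tcf7.

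Calls among cytotoxic genes went in both directions, and those of the 10 granule components tested were all lower in ILC1 (5 genes). Of 21 tested, 3 were higher and 6 lower in ILC1 (42.9% called, against 9.61% of all genes tested, median −0.48). Prf1, which encodes perforin, had 234, 209 and 229 CPM in ILC1 and 1629.9, 1203 and 1019 CPM in NK cells (log2 fold change −2.52 ± 0.19, adjusted p = 7.75e-05). Gzmc, which encodes granzyme C, had 167, 150.1 and 165 CPM in ILC1 and 1.1, 1.06 and 1.05 CPM in NK cells, level within each population (log2 fold change 7.22 ± 0.22, adjusted p = 4.11e-07, chr14:56468857-56479211). Gzmb, which encodes granzyme B, had 2267, 2596 and 2762 CPM in ILC1 and 2087, 1118 and 958 CPM in NK cells, higher in each ILC1 library than in any NK library, with an adjusted p just above the threshold (log2 fold change 0.87 ± 0.27, adjusted p = 0.103). With all 6 libraries kept, Gzmb was called higher in DESeq2 (adjusted p = 0.0032), limma-voom (5.3e-05), with RLE scaling (0.0934), without the filter on low counts (0.000336), at a mean of at least 5 CPM (0.0815) and without mitochondrial and RNA genes (0.0872). NK replicate 1 was the highest NK library, and without it Gzmb was called higher as well (1.29, adjusted p = 0.00345). Gzma had 896, 1232 and 1600.3 CPM in ILC1 and 3602, 2125 and 1325 CPM in NK cells and was not called (log2 fold change −0.92 ± 0.34, adjusted p = 0.191), and it was called lower without NK replicate 3 (−1.21, adjusted p = 0.0399) and without the filter on low counts (adjusted p = 9.32e-05). Per kb of annotated exon, the mean level in ILC1 was 1770.0 CPM for Gzmb, 142 for Gzmc and 84.4 for Prf1, and in NK cells it was 966, 0.946 and 484. The granzymes are close relatives, and reads they share could be divided between them by the estimation. Tnfsf10, which encodes TRAIL, the death ligand of liver ILC1, had 369.5, 462 and 440.3 CPM in ILC1 and 16.9, 14.3 and 12.2 CPM in NK cells (log2 fold change 4.87 ± 0.20, adjusted p = 3.05e-06). Serpinb9b, a serpin of the granzyme B inhibitor family, had 3.5, 0.376 and 0 CPM in ILC1 and 187, 97.9 and 118 CPM in NK cells (log2 fold change −6.68 ± 0.86, adjusted p = 0.00143). Lyst, a regulator of lysosome traffic, was also called higher, and Nkg7, Lamp1, Serpinb9 and Stx11, all of the granule pathway, lower. Without NK replicate 2, 3 members were called lower, and without NK replicate 1, 5 were called higher, as in DESeq2 and limma-voom.

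The Ly49 receptors lie together on chromosome 6 (chr6:129875959-130363837 for those tested). Of 10 tested, 8 were lower in ILC1, against 4.73% of all genes tested, with a median of −4.16. Klra8, which encodes the activating receptor Ly49H, had 11.6, 7.15 and 16.2 CPM in ILC1 and 515, 421 and 465 CPM in NK cells (log2 fold change −5.33 ± 0.30, adjusted p = 1.29e-05). Klra4, which encodes Ly49D, had 26.3, 2.41 and 2.33 CPM in ILC1 and 460.1, 369 and 308 CPM in NK cells (log2 fold change −5.19 ± 0.85, adjusted p = 0.00529). Klra1 had 2.3, 0.903 and 2.13 CPM in ILC1 and 97.2, 75.7 and 58.2 CPM in NK cells (log2 fold change −5.44 ± 0.41, adjusted p = 6.67e-05) and Klra10 0.682, 0.451 and 0.872 CPM in ILC1 and 47.4, 48 and 72.4 CPM in NK cells (log2 fold change −6.39 ± 0.41, adjusted p = 2.5e-05). In each of these, ILC1 replicate 1 or 3 was the highest ILC1 library and still lay below all NK libraries. Klra9 was not called, with 198, 115 and 205 CPM in ILC1 and 397, 255 and 200.5 CPM in NK cells (log2 fold change −0.72 ± 0.29, adjusted p = 0.235). With all 6 libraries it was called lower in limma-voom (adjusted p = 0.046) and without the filter on low counts (0.00226). Klra5 was the member called higher, with 69.2, 70.0 and 67.5 CPM in ILC1 and 0.508, 8.17 and 6.39 CPM in NK cells (log2 fold change 3.77 ± 0.70, adjusted p = 0.0101), and was chosen for mention after its values were seen. These genes are near-identical copies of each other, so the division of reads among them is uncertain. The number called lower was 7 to 9 under every alternative, and the higher call of Klra5 was lost in the fit with the LM samples.

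Among 14 genes of the NKG2, NKR-P1 and KLRG1 receptors, 2 were higher and 2 lower (28.6% called, against 9.61% of all genes tested, median −0.01). Klrc1, which encodes NKG2A, the inhibitory partner of CD94, had 501, 526 and 641 CPM in ILC1 and 280.4, 253 and 194 CPM in NK cells (log2 fold change 1.20 ± 0.18, adjusted p = 0.00317). Klrb1b, an inhibitory NKR-P1 receptor, had 469, 391 and 422 CPM in ILC1 and 213, 157 and 149.9 CPM in NK cells (log2 fold change 1.30 ± 0.17, adjusted p = 0.00178). Klrg1, an inhibitory receptor for cadherins, had 13.4, 2.48 and 4.65 CPM in ILC1 and 153, 81.3 and 65.1 CPM in NK cells (log2 fold change −3.87 ± 0.60, adjusted p = 0.00403). Its ligand gene Cdh1, described above, was high in ILC1 and near 0 in NK cells, the reverse order. Klri2 was lower in ILC1 (log2 fold change −1.42 ± 0.16, adjusted p = 0.000671). Klrk1 (NKG2D) and Klrb1c (NK1.1) were not called, with changes of −0.27 ± 0.17 and −0.34 ± 0.20.

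Of 32 activating receptors and adaptors, 8 were higher and 5 lower (40.6% called, against 9.61% of all genes tested, median −0.04). Cd226, which encodes DNAM-1, had 341, 284 and 273 CPM in ILC1 and 31.5, 49 and 29.2 CPM in NK cells (log2 fold change 3.03 ± 0.23, adjusted p = 6.67e-05). Cd160 had 316, 226 and 304 CPM in ILC1 and 35.8, 40.0 and 21.3 CPM in NK cells (log2 fold change 3.12 ± 0.26, adjusted p = 0.000112) and Cd7 898, 1002 and 976 CPM in ILC1 and 126, 139 and 89.2 CPM in NK cells (log2 fold change 3.02 ± 0.19, adjusted p = 2.5e-05). All 3 encode surface receptors of the immunoglobulin superfamily. Plcg1, a phospholipase of antigen receptor signaling, had 87.8, 95.6 and 96.9 CPM in ILC1 and 4.91, 4.84 and 4.29 CPM in NK cells (log2 fold change 4.32 ± 0.22, adjusted p = 1.02e-05), a call lost in the fit with the LM samples (adjusted p = 0.217). Cd244a, Slamf7 and Zap70 were among the others called higher, and Cd2, Cd247, Sh2d1a, Syk and Fyn lower, so the kinases Zap70 and Syk were called in opposite directions. Txk was not called (0.31 ± 0.16). The higher calls numbered 5 without NK replicate 2, ILC1 replicate 2 or NK replicate 3, and 4 in the fit with the LM samples.

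Checkpoint genes, most of them receptors, were higher in ILC1 where they were called. Of 14 tested, 8 were called higher (57.1%, against 4.88% of all genes tested) and none lower (median 1.32). At an unadjusted p under 0.05 there were 10 in either direction. Cd200r1, the inhibitory receptor for CD200, had 194, 166 and 145 CPM in ILC1 and 0, 0.908 and 0.376 CPM in NK cells (log2 fold change 8.54 ± 0.54, adjusted p = 2.5e-05). Lag3, an inhibitory receptor for MHC class II, had 60.4, 89.8 and 78.7 CPM in ILC1 and 2.54, 7.34 and 2.71 CPM in NK cells (log2 fold change 4.18 ± 0.45, adjusted p = 0.00049). Lilrb4a had 496, 379.7 and 314 CPM in ILC1 and 72, 56.3 and 59.9 CPM in NK cells (log2 fold change 2.66 ± 0.21, adjusted p = 7.75e-05) and Cd101 26.7, 20.2 and 26.1 CPM in ILC1 and 0, 0.454 and 0 CPM in NK cells (log2 fold change 7.20 ± 1.03, adjusted p = 0.00258). The remaining calls were Pdcd1, which encodes PD-1, Cd96, Vsir and Cd274, which encodes PD-L1, the ligand of PD-1. Tigit had 49.1, 53 and 46.1 CPM in ILC1 and 92.9, 32.8 and 38.9 CPM in NK cells and was not called (log2 fold change −0.15 ± 0.37, adjusted p = 0.906). Entpd1 (CD39), an enzyme counted with the receptors, was not called (0.39 ± 0.25). It was called higher without NK replicate 1 (0.74, adjusted p = 0.039), without replicate 1 of both populations (adjusted p = 0.0114) and in limma-voom (0.00721). In the fit with the LM samples 4 members were called higher, and Lag3 (adjusted p = 0.189) and Cd101 (adjusted p = 0.103) were not. DESeq2 called 10 higher and none lower, and limma-voom 11 higher and 1 lower. Without ILC1 replicate 1, 1 member was called lower.

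**Figure D3:**
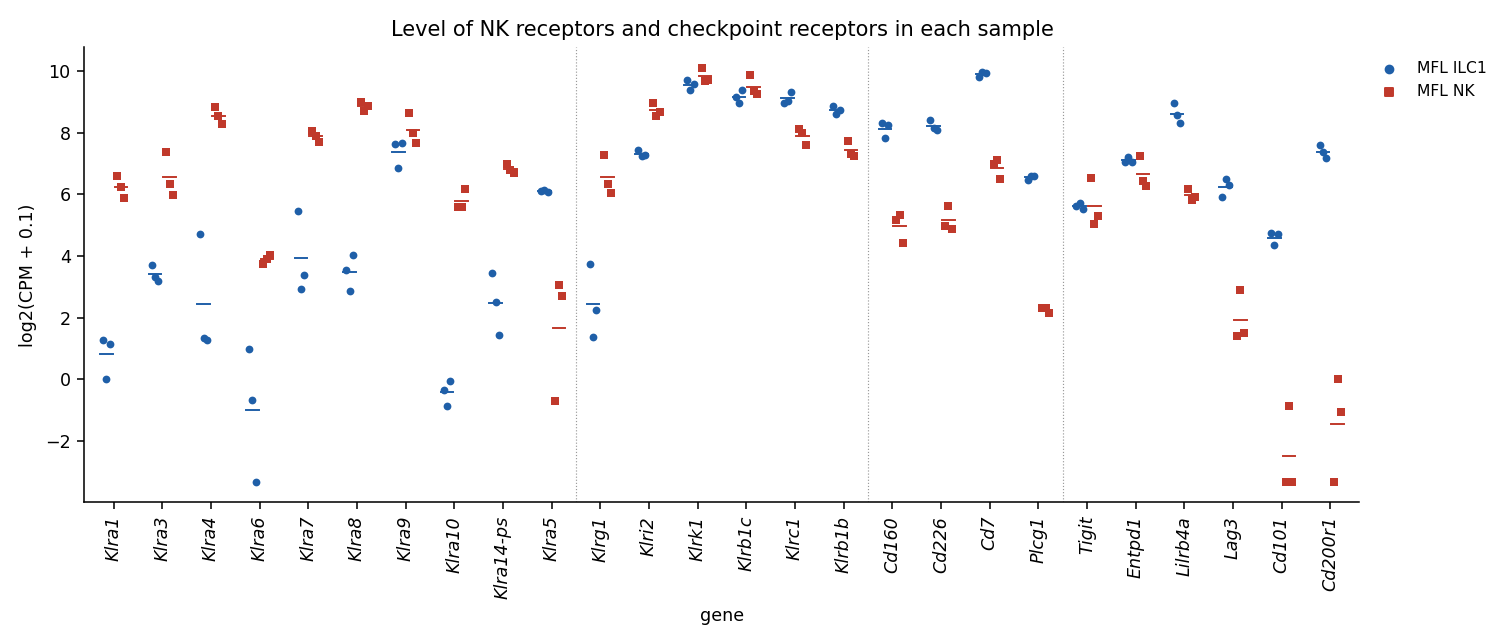
Level of each receptor, adaptor or enzyme gene in each sample as log2(CPM + 0.1). Each of the 3 MFL ILC1 libraries has 1 blue point and each of the 3 MFL NK libraries 1 red square. A line marks the group's mean on that scale. Klra1, Klra4, Klra8 and Klra10 lie higher in every NK library, Cd200r1, Lag3, Cd160 and Cd226 in every ILC1 library, and the groups overlap for Tigit and Klrk1.

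Cytokine receptors were called in both directions, with 11 higher and 7 lower of 28 (64.3% called, against 9.61% of all genes tested, median 0.48). Il7r, the IL-7 receptor of innate lymphoid cells, had 183, 75.7 and 96.6 CPM in ILC1 and 6.18, 6.36 and 6.17 CPM in NK cells (log2 fold change 4.24 ± 0.35, adjusted p = 0.000112). Il21r had 201, 264 and 215 CPM in ILC1 and 20.5, 29.8 and 24 CPM in NK cells (log2 fold change 3.19 ± 0.20, adjusted p = 2.5e-05), and Il2ra, the chain that raises affinity for IL-2, had 14.9, 31.1 and 39.5 CPM in ILC1 and 1.52, 3.4 and 3.46 CPM in NK cells (log2 fold change 3.34 ± 0.54, adjusted p = 0.00485). All act with Il2rg, the common γ chain, which did not pass the test (−0.20 ± 0.17), nor did Il2rb (0.30 ± 0.14), which was called higher in DESeq2 (adjusted p = 0.0635) and limma-voom (0.0177). Il18r1, the receptor for IL-18, which drives IFN-γ with IL-12, had 92.1, 63 and 77 CPM in ILC1 and 449.6, 438 and 513 CPM in NK cells (log2 fold change −2.59 ± 0.18, adjusted p = 3.87e-05). Il18rap and Il12rb2 were called lower with it, and Il12rb1 higher. Of 6 TGF-β family receptors, Tgfbr1, Acvr1b and Acvr2a were called higher and Tgfbr3, a co-receptor, lower. Il4ra, Ifnar2, Il27ra and Csf2rb were called higher, and Ifngr1, Il10ra and Il17ra lower. In the fit with the LM samples 3 members were called higher, and Il2ra was not (adjusted p = 0.315).

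Cytokine genes included 5 called higher and 4 lower of 19 (47.4% called, against 9.61% of all genes tested, median −0.28). Tnf had 66.6, 37.5 and 47.2 CPM in ILC1 and 0.593, 6.66 and 2.26 CPM in NK cells (log2 fold change 3.98 ± 0.71, adjusted p = 0.0082). Ltb, which encodes lymphotoxin β, had 43.6, 101 and 96.9 CPM in ILC1 and 8.56, 12.6 and 6.47 CPM in NK cells (log2 fold change 3.13 ± 0.39, adjusted p = 0.0012). Xcl1, a chemokine that attracts cross-presenting dendritic cells, had 102, 105 and 172 CPM in ILC1 and 16.6, 26.8 and 15.9 CPM in NK cells (log2 fold change 2.67 ± 0.30, adjusted p = 0.000608), and Csf1, the growth factor of macrophages, 23.5, 31.7 and 28 CPM in ILC1 and 5.68, 2.8 and 2.71 CPM in NK cells (log2 fold change 2.90 ± 0.45, adjusted p = 0.004). Each of these 4 was higher in all ILC1 libraries than in any NK library. Vegfa, an angiogenic factor, had 1.19, 3.84 and 4.56 CPM in ILC1 and 62.4, 76.7 and 111 CPM in NK cells (log2 fold change −4.71 ± 0.48, adjusted p = 0.000383). Ccl1 was also called higher and Osm, Ccl3 and Ccl5 lower. Ifng, the shared cytokine of both populations, had 134, 117 and 139 CPM in ILC1 and 175, 189 and 162 CPM in NK cells and was not called (log2 fold change −0.43 ± 0.15, adjusted p = 0.145), nor were Ccl4 (−0.14 ± 0.19) and Il16 (0.14 ± 0.15). The calls of Tnf (adjusted p = 0.162) and Csf1 (adjusted p = 0.803) were lost in the fit with the LM samples, which left 2 called higher and 2 lower, and limma-voom called 7 lower, Ifng with them (adjusted p = 0.0143).

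Of 17 genes listed for the TNF superfamily, 4 were higher and 1 lower (29.4% called, against 9.61% of all genes tested, median 0.89). Tnf, Ltb and Tnfsf10 also belong to the family, but were counted in the lists above, where each was called higher. Tnfsf8, which encodes CD30 ligand, had 87.2, 69.4 and 55.7 CPM in ILC1 and 5.25, 3.33 and 1.43 CPM in NK cells (log2 fold change 4.41 ± 0.46, adjusted p = 0.000446). Tnfrsf18, which encodes the costimulatory receptor GITR, had 78.7, 78.9 and 109 CPM in ILC1 and 53.3, 45 and 30.1 CPM in NK cells (log2 fold change 1.06 ± 0.25, adjusted p = 0.0363), and Tnfrsf13c, a receptor for BAFF, 10.9, 10.4 and 15.7 CPM in ILC1 and 1.36, 2.35 and 2.56 CPM in NK cells (log2 fold change 2.56 ± 0.61, adjusted p = 0.0364). Tnfsf12, which encodes TWEAK, had 5.46, 12.4 and 8.82 CPM in ILC1 and 25.8, 31.6 and 27.8 CPM in NK cells (log2 fold change −1.67 ± 0.39, adjusted p = 0.033). Tnfrsf1a was also called higher. Cd27, which is high on immature NK cells, had 55.2, 83.7 and 72.5 CPM in ILC1 and 16, 60.9 and 36.4 CPM in NK cells and was not called (log2 fold change 0.90 ± 0.41, adjusted p = 0.321), nor were Tnfrsf1b (−0.05 ± 0.15) and Tnfrsf9 (0.00 ± 0.29). Cd27 was called higher without the filter on low counts (adjusted p = 0.0111). Without NK replicate 2, NK replicate 3 or ILC1 replicate 3, 2 members were called higher and none lower. Tnfrsf18 (adjusted p = 0.108 to 0.148) and Tnfsf12 (0.108 to 0.182) lost their calls in those leave-outs, and Tnfrsf13c (0.112 to 0.2) in them and without ILC1 replicate 2. In the fit with the LM samples 1 member was called higher and none lower, and Tnfrsf18 (adjusted p = 0.396), Tnfrsf13c (0.906) and Tnfsf12 (1) were not.

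Regulators of cytokine signals gave 8 higher and 7 lower of 38 (39.5% called, against 9.61% of all genes tested, median −0.06). Inpp4b, a phosphatase of the PI3K pathway, had 423, 459.7 and 442 CPM in ILC1 and 0.254, 7.72 and 5.34 CPM in NK cells (log2 fold change 6.62 ± 0.71, adjusted p = 0.00049, chr8:82069185-82854543). Socs2 had 69.1, 84.3 and 91.2 CPM in ILC1 and 10.5, 4.46 and 4.06 CPM in NK cells (log2 fold change 3.69 ± 0.39, adjusted p = 0.000486) and Cish 120.0, 194 and 184 CPM in ILC1 and 35.2, 13.9 and 22.6 CPM in NK cells (log2 fold change 2.80 ± 0.34, adjusted p = 0.000993), both inhibitors induced by STAT5. Socs1 was also called higher and Socs3 lower, so 3 of 8 SOCS genes were higher and 1 lower. Tgif1, a corepressor of SMAD2, had 21.7, 13.8 and 16.6 CPM in ILC1 and 37, 66.1 and 68.5 CPM in NK cells (log2 fold change −1.72 ± 0.32, adjusted p = 0.0094), a call lost in the fit with the LM samples (adjusted p = 0.228). Inpp4a, Jak2 and Ski were among the others called higher and Jak1, Tyk2, Smad3, Pik3r1 and Pik3r5 lower. Inpp5d (SHIP-1, −0.27 ± 0.14) and Pik3cd (0.28 ± 0.18) were not called. In the fit with the LM samples 4 members were called higher and 4 lower.

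Genes of the type I interferon response were higher in ILC1 where they were called. Of 38 tested, 14 were called higher (36.8%, against 4.88% of all genes tested) and none lower. A positive change was seen in 32 (median 0.57), against 6324 of all 12779 genes, and 16 passed an unadjusted p under 0.05. Interferon acts through the factor ISGF3, which binds the interferon-stimulated response element (ISRE) of its target promoters. The promoters of 3 genes named here are shown, chosen because they hold the ISRE core. Each is the 250 bases before the start of the gene's canonical transcript on the GRCm39 genome, 5′ to 3′ on the gene's strand, and capitals mark matches on either strand to its core, the unit GAAA, any 2 bases and GAAA again.
Ifit1 (chr19:34618021-34618270, + strand): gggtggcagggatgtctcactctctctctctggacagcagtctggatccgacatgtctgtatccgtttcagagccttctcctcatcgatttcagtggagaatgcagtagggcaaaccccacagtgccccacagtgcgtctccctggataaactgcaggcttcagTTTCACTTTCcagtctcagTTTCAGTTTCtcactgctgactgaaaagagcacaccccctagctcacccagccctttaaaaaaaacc
Ifit3 (chr19:34560649-34560898, + strand): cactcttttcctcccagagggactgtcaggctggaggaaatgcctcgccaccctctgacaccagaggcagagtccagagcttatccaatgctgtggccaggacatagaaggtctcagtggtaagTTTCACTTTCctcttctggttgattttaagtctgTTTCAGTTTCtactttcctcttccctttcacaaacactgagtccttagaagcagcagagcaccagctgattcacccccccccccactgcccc
Rtp4 (chr16:23428396-23428645, + strand): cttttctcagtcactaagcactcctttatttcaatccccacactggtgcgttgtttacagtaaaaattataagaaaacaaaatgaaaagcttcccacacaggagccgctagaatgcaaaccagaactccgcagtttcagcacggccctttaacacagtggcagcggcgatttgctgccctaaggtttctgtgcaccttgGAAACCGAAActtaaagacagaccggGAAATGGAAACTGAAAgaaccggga
Ifit1 and Ifit3 each held 2 matches, all on the reverse strand, and Rtp4 held 3, of which the last pair overlap. Of the 12730 tested genes with such a promoter, 399 (3.13%) held the core, against 13 of 38 (34.2%) in the interferon list. The share was 35.7% in the members called higher (5 of 14) and 33.3% in those not called (8 of 24). Among all genes, 33 of 622 called higher (5.31%) and 16 of 602 called lower (2.66%) held it. A match is a description of the letters and not a binding site shown here.

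Ifit1, which encodes a sensor of viral RNA caps, had 19.4, 24 and 27.2 CPM in ILC1 and 6.1, 7.72 and 5.87 CPM in NK cells (log2 fold change 1.84 ± 0.38, adjusted p = 0.018). Its neighbor Ifit3 had 46.4, 22.6 and 25.8 CPM in ILC1 and 8.3, 9.23 and 6.62 CPM in NK cells (log2 fold change 1.97 ± 0.39, adjusted p = 0.0148). Rtp4, an interferon-induced chaperone of receptor transport, had 58.2, 29.3 and 38 CPM in ILC1 and 5.93, 8.32 and 9.78 CPM in NK cells (log2 fold change 2.38 ± 0.37, adjusted p = 0.00406), and Isg20, an RNA exonuclease, 27, 12 and 23.2 CPM in ILC1 and 0.424, 2.19 and 4.06 CPM in NK cells (log2 fold change 3.21 ± 0.76, adjusted p = 0.0353). In Ifit3 and Rtp4, ILC1 replicate 1 was the highest library, and in Ifit1 it was the lowest of the ILC1 libraries. Ifih1, Zbp1, Ly6e, Parp9, Parp14, Dtx3l, Herc6, Eif2ak2 and Slfn5 were among the other calls. Samd9l (0.36 ± 0.16) and Rigi (0.31 ± 0.20) were not called. Without NK replicate 2, 7 members were called higher, without ILC1 replicate 3, 9, and in the fit with the LM samples, 1. Isg20 lost its call without NK replicate 2 or ILC1 replicate 3 (adjusted p = 0.113 to 0.14) and Ifit1 without ILC1 replicate 3 (1.72, adjusted p = 0.104). DESeq2 called 15 higher and none lower, and limma-voom 17 higher and none lower.

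MHC class I and peptide loading genes differed by small amounts. Of 19 tested, 4 were called higher (21.1%, against 4.88% of all genes tested) and none lower, with 7 at an unadjusted p under 0.05. All 19 had a positive change (median 0.38), against 6324 of all 12779 genes. The positive changes numbered 18 in limma-voom and without ILC1 replicate 2, NK replicate 3 or replicate 1 of both populations. Without ILC1 replicate 3 they numbered 16. Nlrc5, the transactivator of class I genes, had 558, 619 and 638 CPM in ILC1 and 269, 366 and 406 CPM in NK cells (log2 fold change 0.80 ± 0.17, adjusted p = 0.0233). H2-T23, which encodes Qa-1, the ligand of NKG2A, had 227, 265 and 351 CPM in ILC1 and 201, 172 and 128 CPM in NK cells (log2 fold change 0.75 ± 0.22, adjusted p = 0.0811). Tap2, a peptide transporter (log2 fold change 0.57 ± 0.15, adjusted p = 0.0518), and Pdia3, a chaperone of class I assembly (log2 fold change 0.60 ± 0.17, adjusted p = 0.0801), changed by less than 1 on the log2 scale. The classical genes H2-K1 (0.21 ± 0.16) and H2-D1 (0.03 ± 0.18) were not called. One call remained without NK replicate 2, ILC1 replicate 2, NK replicate 3 or ILC1 replicate 3, and 7 were made without ILC1 replicate 1. In the fit with the LM samples none was called, and in limma-voom 9.

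Of 14 survival genes of the BCL2 family, 10 were not called. Of 6 anti-apoptotic genes, 2 were higher (33.3%, against 4.88% of all genes tested). Of 8 pro-apoptotic genes, 2 were lower (25%, against 4.73%). A positive change was seen in 5 of the 6 (lowest −0.30) and a negative one in 7 of the 8 (highest 0.94). Bcl2 had 667, 606 and 607 CPM in ILC1 and 436, 328 and 402 CPM in NK cells (log2 fold change 0.69 ± 0.15, adjusted p = 0.0238). Bcl2a1b, one of several near-identical A1 copies and so uncertain, had 33, 24.1 and 38.2 CPM in ILC1 and 9.4, 10.6 and 4.89 CPM in NK cells (log2 fold change 1.94 ± 0.40, adjusted p = 0.0181). Pmaip1, which encodes the BH3-only protein NOXA, had 0.938, 1.58 and 0.872 CPM in ILC1 and 26, 21.3 and 24.2 CPM in NK cells (log2 fold change −4.38 ± 0.49, adjusted p = 0.00066), and Bbc3, which encodes PUMA, 3.07, 10.6 and 7.75 CPM in ILC1 and 21.9, 24.4 and 23.8 CPM in NK cells (log2 fold change −1.71 ± 0.49, adjusted p = 0.0762). Bcl2l11 (BIM, −0.09 ± 0.19) and Mcl1 (0.03 ± 0.14) were not called. None of the 4 calls held in the fit with the LM samples. Without NK replicate 2, 2 members were called. Bcl2 lost its call there (0.58, adjusted p = 0.142) and Bbc3 in every leave-out of 1 library but those of ILC1 replicates 1 and 2 (adjusted p = 0.15 to 0.267).

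Most cell cycle genes did not pass the test, and those that did were lower in ILC1. Of 96 S and G2/M genes, none was called higher and 7 lower (7.29%, against 4.73% of all genes tested). A negative change was seen in 78 (median −0.61), against 6455 of all 12779 genes, and 21 passed an unadjusted p under 0.05. Top2a, the DNA topoisomerase of dividing cells, had 36.7, 54.3 and 25.8 CPM in ILC1 and 106, 135 and 122 CPM in NK cells (log2 fold change −1.63 ± 0.27, adjusted p = 0.00529). Tpx2, a spindle protein, had 6.99, 12.9 and 5.14 CPM in ILC1 and 28.5, 26 and 32.7 CPM in NK cells (log2 fold change −1.79 ± 0.42, adjusted p = 0.0323). Rrm2, a subunit of ribonucleotide reductase, had 5.8, 9.86 and 7.46 CPM in ILC1 and 31.1, 22.7 and 17.2 CPM in NK cells (log2 fold change −1.62 ± 0.41, adjusted p = 0.0485), and Cdca8, of the chromosomal passenger complex, 0.853, 3.23 and 2.33 CPM in ILC1 and 8.22, 14.6 and 13.3 CPM in NK cells (log2 fold change −2.49 ± 0.70, adjusted p = 0.0704). The other calls were Pola1, Mki67 and Anp32e. The more abundant members Hmgb2 (−0.44 ± 0.15) and Lbr (−0.39 ± 0.15) were not called, although Hmgb2 was called lower without ILC1 replicate 1 (−0.56, adjusted p = 0.0523), without replicate 1 of both populations (adjusted p = 0.037) and in limma-voom (0.00429). The number called lower was 2 without NK replicate 2 or ILC1 replicate 3, 3 without NK replicate 3, 11 without ILC1 replicate 1 and 28 without replicate 1 of both populations. It was 12 in DESeq2, 29 in limma-voom, 2 in the fit with the LM samples and 1 with the replicate number as a block. None was called higher in any of these. Rrm2 (adjusted p = 0.146 to 0.19), Tpx2 (0.103 to 0.145) and Cdca8 (0.113 to 0.339) each lost the call in at least 3 leave-outs.

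Most metabolic genes did not pass the test, as was so for all genes tested, of which 9.61% were called. In glycolysis, 1 gene was higher and 1 lower of 22 (9.09% called, median −0.24). Pdk1, which restrains entry of pyruvate into mitochondria, had 78.4, 43.6 and 41.2 CPM in ILC1 and 11.9, 15.4 and 11.7 CPM in NK cells (log2 fold change 2.06 ± 0.33, adjusted p = 0.00434), and Pfkp, the platelet-type phosphofructokinase, 117, 103 and 119.9 CPM in ILC1 and 330.3, 375 and 404 CPM in NK cells (log2 fold change −1.71 ± 0.15, adjusted p = 0.000152). Gapdh (0.32 ± 0.14) and Eno1 (−0.63 ± 0.20) were not called, and Eno1 lay near the threshold. With all 6 libraries Eno1 was called lower in DESeq2 (adjusted p = 0.031), limma-voom (0.0498), without the filter on low counts (0.0127) and at a mean of at least 5 CPM (0.0995), and it was also called lower without NK replicate 3 (−0.81, adjusted p = 0.0297). Of 25 genes of cholesterol and fatty acid synthesis, 12% were called. Lss, a sterol cyclase (log2 fold change 1.96 ± 0.28, adjusted p = 0.00285), and Srebf2 (log2 fold change 0.76 ± 0.23, adjusted p = 0.0966) were called higher and Scd2, a fatty acid desaturase (log2 fold change −1.20 ± 0.24, adjusted p = 0.0145), lower. Srebf2, the master regulator of the sterol enzymes, lost its call in every leave-out of 1 library but that of ILC1 replicate 1 (adjusted p = 0.2 to 0.305). Fasn (0.20 ± 0.18) and Acly (−0.30 ± 0.14) were not called. Without ILC1 replicate 1, 5 glycolysis genes and 5 of the lipid synthesis list were called in either direction. In the fit with the LM samples no lipid gene was called, Lss (adjusted p = 0.168), Scd2 (0.142) and Srebf2 (0.337) included, and Pdk1 lost its call (adjusted p = 0.103). None of 77 oxidative phosphorylation genes, 80 ribosomal protein genes or 14 mitochondrially encoded genes was called by edgeR, with 1, 2 and 0 at an unadjusted p under 0.05, DESeq2 called none of them, and limma-voom called 1, 0 and 1. Leaving out 1 library gave at most 1 call in each of these lists. Their abundant members Rpl13a (0.08 ± 0.45), Rpsa (−0.13 ± 0.20), Atp5f1a (−0.18 ± 0.15), Atp5f1b (−0.26 ± 0.22), mt-Rnr1 (0.31 ± 0.54) and mt-Rnr2 (0.19 ± 0.50) were not called.

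Early response genes, which dissociation can induce, were called in 7 of 24 cases (29.2%, against 9.61% of all genes tested). Of these, 2 were higher and 5 lower (median over the list −0.03). Nr4a1 had 79.5, 39 and 40.4 CPM in ILC1 and 338, 256 and 334 CPM in NK cells (log2 fold change −2.55 ± 0.29, adjusted p = 0.000669) and Nr4a2 126, 67 and 52.1 CPM in ILC1 and 167, 182 and 261 CPM in NK cells (log2 fold change −1.32 ± 0.32, adjusted p = 0.0392), both orphan nuclear receptors induced by antigen receptor signals. Dusp6, a phosphatase of ERK, had 181, 181 and 169.6 CPM in ILC1 and 50.0, 44.2 and 42 CPM in NK cells (log2 fold change 1.96 ± 0.15, adjusted p = 8.64e-05), and Gadd45g, a stress-induced gene, 40.8, 49.3 and 47.5 CPM in ILC1 and 11, 18.9 and 19 CPM in NK cells (log2 fold change 1.49 ± 0.30, adjusted p = 0.0147). Ier2, Ier5 and Dusp5 were also called lower. Jun (0.25 ± 0.21) and Jund (−0.07 ± 0.21) were not called, and none of 7 AP-1 genes was. Nr4a2 lost its call without ILC1 replicate 2, NK replicate 3 or ILC1 replicate 3 (adjusted p = 0.105 to 0.143), which left 2 to 3 members called lower. The fit with the LM samples left 1 called higher and 1 lower, without Nr4a2 (adjusted p = 0.497) and Gadd45g (0.208). No heat shock gene of 11 was called, with 1 at an unadjusted p under 0.05, 1 called by DESeq2 and 2 by limma-voom, and the log2 fold change was −0.18 ± 0.18 for Hspa8 and −0.26 ± 0.16 for Hsp90ab1.

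**Figure D4:**
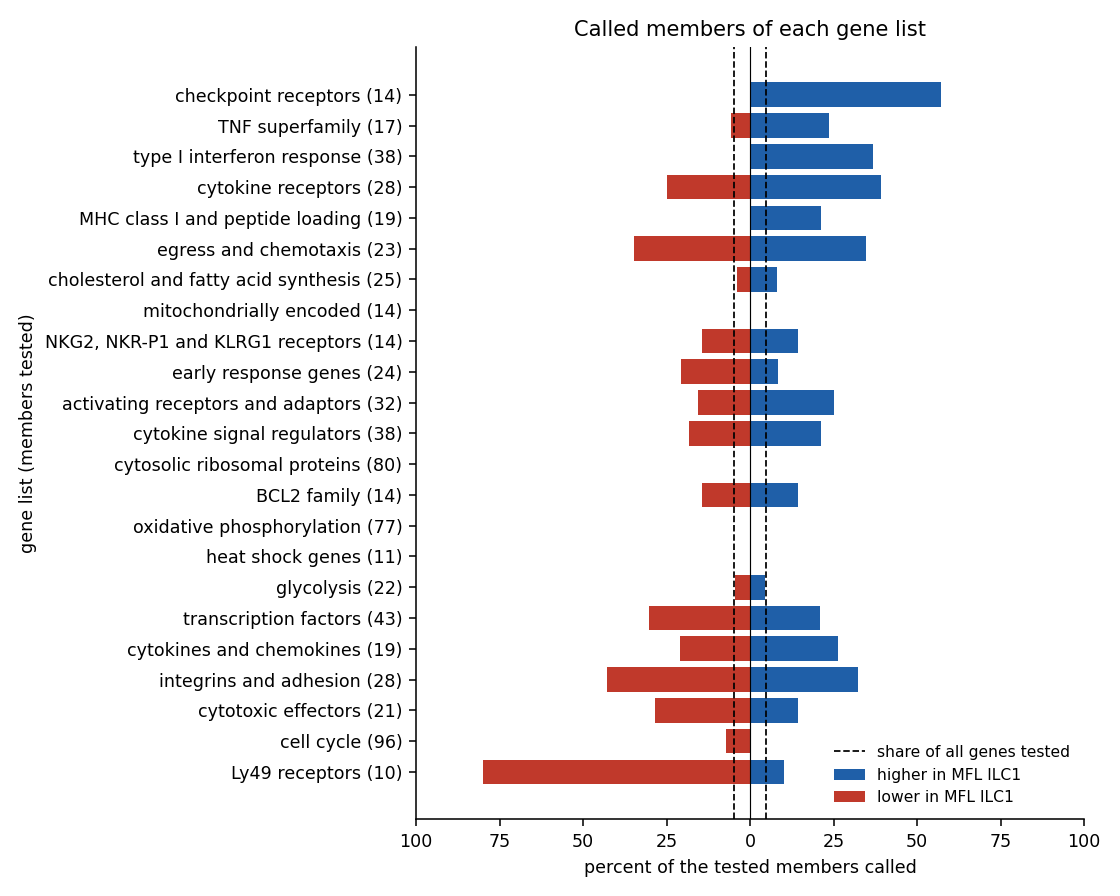
For each gene list, bars give the percent of its tested members called higher (blue, to the right) and lower (red, to the left) in MFL ILC1, with the number tested in parentheses, and dashed lines mark the shares over all genes tested, 4.88% higher and 4.73% lower. Lists are ordered by their median log2 fold change, from checkpoint receptors, with calls in 1 direction, to Ly49 receptors, with 8 of 10 called lower, and 4 lists have no call.

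Markers of other cells the gate could hold differed between the populations for some cell types. Of 16 T cell markers, 9 passed the filter and were tested. Of these, 5 were called higher and 1 lower in ILC1, against 4.88% and 4.73% of all genes tested. The summed level of all 16 was 741 to 1188 CPM in ILC1 and 145 to 247 CPM in NK cells. Cd3g, a chain of the CD3 complex, had 225, 537 and 683 CPM in ILC1 and 4.57, 9.69 and 4.89 CPM in NK cells (log2 fold change 6.23 ± 0.49, adjusted p = 8.92e-05), and Trgc4, a T cell receptor γ constant gene, 104, 101 and 104 CPM in ILC1 and 2.46, 2.95 and 1.58 CPM in NK cells (log2 fold change 5.46 ± 0.29, adjusted p = 1.02e-05). Trbc1, Trbc2 and Cd8a were also called higher and Trdc lower. Themis was at 0 in every library, Cd3d was at or under 4.94 CPM and not called, and the other CD3 chain, Cd3e, did not pass the filter. Of 7 ILC3 markers, the 2 tested, Tmem176a and Tmem176b, were called higher (list sums of 95.2 to 131 CPM in ILC1 and 0 to 1.66 in NK cells). Il22, Il17a and Il23r were at 0 in every library. Of 8 B cell markers, 4 were tested and Ighm was called higher (sums of 148 to 187 CPM against 32.0 to 84.0 CPM). Cd79a and Pax5 were at 0 in every library. Of 7 markers of tumor epithelium, the 2 tested, Cdh1 and Epcam, were called higher (60.9 to 95.6 CPM against 0.303 to 2.63 CPM). Krt19, Cldn4 and Cldn7 were at 0 in every library, and Krt8 and Krt18 at or under 0.376 CPM. Cdh1 and Epcam thus made up nearly all of the sum in ILC1. Of 9 endothelial markers, 3 were tested and Eng was called higher in ILC1, with sums of 135 to 155 CPM against 89.4 to 152 CPM. No neutrophil or stellate marker passed the filter on low counts, so none could be called. None of the tested markers was called for hepatocytes (6 tested of 10), macrophages (4 of 12) or dendritic cells (4 of 9). The same held for ILC2 (2 of 6) and erythroid cells (5 of 6). ILC1 replicate 2 held 122 CPM of macrophage markers against 4.44 to 15.8 CPM in the other libraries. The part of other cells in the lists above, in which T cell genes such as Bcl11b stand, was not tested.

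**Figure D5:**
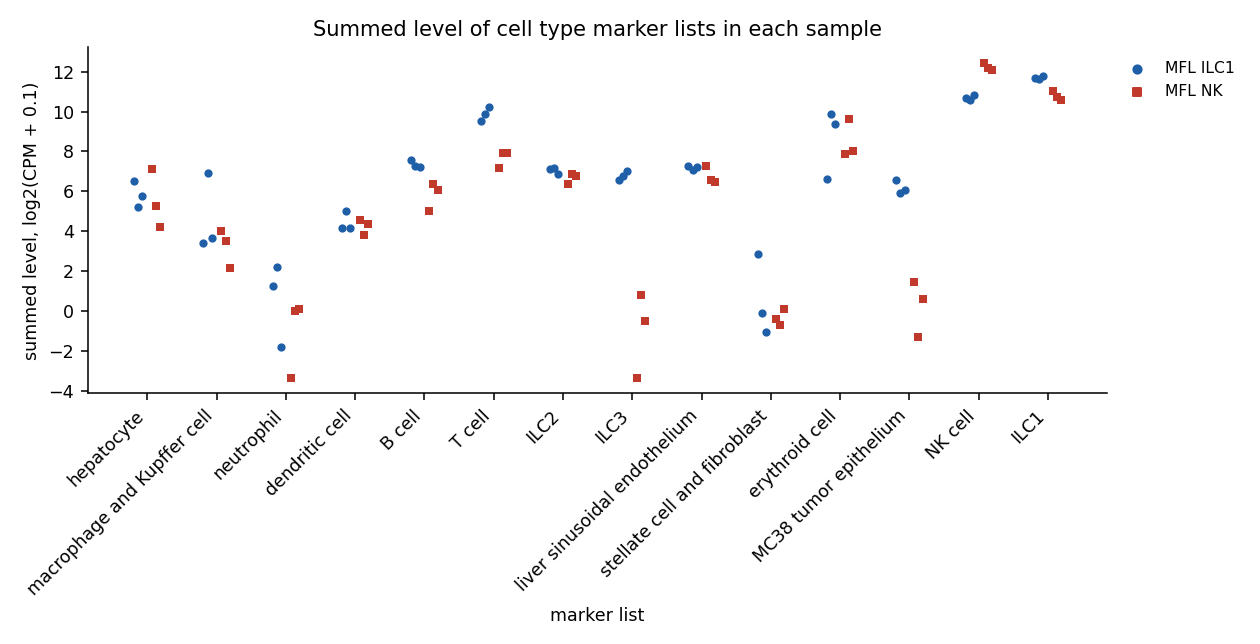
Summed level of each marker list in each sample as log2(CPM + 0.1), with 1 blue point for each of the 3 MFL ILC1 and 1 red square for each of the 3 MFL NK libraries. The T cell, B cell, ILC3 and tumor epithelium sums lie higher in every ILC1 library, the last through Cdh1 and Epcam. The hepatocyte and erythroid sums overlap.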

How the data were processed

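Lymphocytes were sorted from pools of 6 to 8 livers, and stranded total RNA libraries were sequenced. Per the study's methods and the submitters' notes, the authors used Trim Galore for trimming, estimated transcript abundance with Salmon v1.5.0 (GENCODE M27, GRCm39) and summed it to genes with tximport. The files hold these estimated counts as deposited, whole numbers for 54309 genes that are not normalized, of which 53700 IDs were named from GENCODE vM39. Sequencing depth was 10078965 to 13169511 counts per library. The deposited macrophage counts of the series were not used here.

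The 3 MFL ILC1 and 3 MFL NK samples, grouped by their labels, were compared with edgeR v4.0.16 in R v4.3.3. Genes were kept by filterByExpr (12779 genes), libraries were scaled by TMM, and the quasi-likelihood test was adjusted by the Benjamini-Hochberg method, with calls at an adjusted p under 0.1. Low counts limit precision, and a group with 3 counts or fewer in every library was set to 3 counts per library, so that its fold is a lower bound. Values after ± are standard errors (the log2 fold change divided by the square root of F, approximate, n = 3 per group). With 3 against 3 the smallest exact two-sided permutation p is 0.1. Alternatives were another scaling, DESeq2 v1.42.0, limma-voom (limma v3.58.1) with sample weights, other filters, a fit of all 12 lymphocyte samples, a replicate block and leaving out each library. Leaving out replicate 1 of both groups was chosen after seeing the data. The scripts were tested on simulated data.

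Members and lists were chosen with earlier results of these data known. The text names the sorting genes, the 10 widest calls per direction (protein-coding, at least 10 CPM in the higher group, no overlap), up to 4 calls per list (at least 5 CPM, no overlap), up to 2 uncalled members per list with the highest mean CPM, and a fixed set of NK cell and ILC1 genes. Other called members are named beside the counts, and a few listed genes are not reported here. Cell cycle genes are those distributed with Seurat v5.3.0. Promoters are the 250 bases before the canonical transcript start in GENCODE vM39 on the GRCm39 genome. Figures used matplotlib v3.10.9.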

Additional observations from a re-analysis of the deposited data

How the results depend on the processing

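Every gene called between MFL ILC1 and MFL NK cells that was tested under an alternative kept its direction. The 1228 calls (624 higher and 604 lower) became 416 (188 and 228) in the fit of all 12 lymphocyte samples and 2419 (1219 and 1200) in limma-voom with sample weights, and the cause was not tested. Leaving out libraries gave 751 to 2129 calls, 411 to 1037 higher and 340 to 1092 lower, the lowest without NK replicate 2 and the highest without replicate 1 of both groups. The deviations of samples that share a replicate number correlated weakly (r = 0.048, 0.068 and −0.054 for numbers 1, 2 and 3). ILC1 replicates 1 and 2 correlated best with the NK sample of their own number, replicate 2 by a small margin (0.061 with NK replicate 3). ILC1 replicate 3 correlated best with NK replicate 2 (0.055). With correlations this weak the numbers were not taken as pairs, although replicate 1 of both groups lay together on a component of log2 CPM. With the number as a replicate block 788 genes were called, 419 higher and 369 lower, and 773 of them were among the 1228. Under the block the cell cycle genes called lower went from 7 to 1, the TNF superfamily genes called higher from 4 to 2 and those of MHC class I from 4 to 1. Over the 146 genes named, other settings of the fit ended the call of 34 genes and made one for 19, and leaving out libraries ended 16 and made 8. Among the 19, Bhlhe40, P2ry10, Pik3cd, Inpp5d, Samd9l, Rigi and Acly were called in limma-voom only (adjusted p = 0.039 to 0.0819). Uncalled genes near 0 changed sign on the log2 scale. In limma-voom, Tigit was 0.45, Ccl4 0.061, Jund 0.0049, Atp5f1b 0.012 and mt-Rnr2 −0.040. Tnfrsf9 was −0.0043 without the filter on low counts, −1.7e-05 without mitochondrial and RNA genes and −0.013 with the replicate block, where Tigit was 0.0086. With libraries left out, Tigit ranged from −0.42 to 0.46, Ccl4 from −0.27 to 0.12, Jund from −0.24 to 0.12, Rpsa from −0.33 to 0.050, Tnfrsf1b from −0.12 to 0.018, mt-Rnr2 from −0.42 to 0.79, mt-Rnr1 from −0.31 to 1.01, Mcl1 from −0.032 to 0.14, Tnfrsf9 from −0.21 to 0.28, Bcl2l11 from −0.32 to 0.077, H2-D1 from −0.098 to 0.27, Rpl13a from −0.32 to 0.70, Ncr1 from −0.16 to 0.035, Il2rg from −0.30 to 0.022 and Atp5f1b from −0.42 to 0.11. Depth limits genes near 0 in one population, where the fold is a lower bound.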

Other observations

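Several gene groups that the comparison above did not list also differed between MFL ILC1 and MFL NK cells. They were chosen after their values were seen and are given as values only. Of 13 Notch pathway genes tested, 4 were higher and 3 lower in ILC1, against 4.88% and 4.73% of all genes tested. The ligand gene Dll1 had 59.1, 88.8 and 71.1 CPM in ILC1 and 4.32, 5.3 and 2.56 CPM in NK cells (log2 fold change 4.17 ± 0.34, adjusted p = 0.000112), and Rbpj, the DNA-binding factor of the pathway, 165, 277 and 209 CPM in ILC1 and 42.7, 36.7 and 29.5 CPM in NK cells (log2 fold change 2.58 ± 0.24, adjusted p = 0.00018). Jag1 and Dtx1 were also higher. Hes1, a classical Notch target, had 0.171, 4.29 and 3.59 CPM in ILC1 and 25.8, 26.1 and 25.9 CPM in NK cells (log2 fold change −3.27 ± 0.83, adjusted p = 0.0465), and Nrarp, a target that feeds back on the receptor, 11.6, 5.34 and 6.2 CPM in ILC1 and 35.3, 69.5 and 63.9 CPM in NK cells (log2 fold change −2.87 ± 0.40, adjusted p = 0.00239). Maml3, which encodes a coactivator, was also lower.

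Among 12 semaphorin and plexin genes, Sema6d had 205, 173 and 180.0 CPM in ILC1 and 4.32, 0.984 and 0.0752 CPM in NK cells and was higher in ILC1 (log2 fold change 6.73 ± 0.75, adjusted p = 0.000623), whereas Sema4a, Sema4b, Sema6a and Plxnc1 were lower. P2rx7, the ATP-gated channel that makes tissue-resident lymphocytes sensitive to damage during isolation, had 194, 189 and 221 CPM in ILC1 and 0, 1.51 and 0 CPM in NK cells (log2 fold change 8.57 ± 0.77, adjusted p = 0.000167), and Art2b, the ADP-ribosyltransferase that activates it, 20.5, 61.8 and 61.5 CPM in ILC1 and 0.593, 1.14 and 1.05 CPM in NK cells (log2 fold change 5.67 ± 0.56, adjusted p = 0.000322). All 3 CD200 receptor genes tested were higher, Cd200r2 with 182, 159.7 and 168 CPM in ILC1 and 3.47, 0.908 and 0.527 CPM in NK cells (log2 fold change 6.72 ± 0.54, adjusted p = 9.3e-05). The inhibitory Fc receptor gene Fcgr2b had 0, 1.96 and 0.388 CPM in ILC1 and 75, 64.5 and 70.8 CPM in NK cells and was lower in ILC1 (log2 fold change −6.41 ± 0.81, adjusted p = 0.0012).

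Of 61 histone genes tested, 12 were called, each lower in ILC1, against 4.73% of all genes tested. A negative change was seen in 57, against 6455 of all 12779 genes. The median was −1.48 on the log2 scale, in the same direction as the cell cycle genes above. H2ac13, an H2A gene of the replication-dependent clusters, had 21.7, 26.9 and 28.2 CPM in ILC1 and 68.6, 85.9 and 59.2 CPM in NK cells (log2 fold change −1.48 ± 0.23, adjusted p = 0.00415). The replication-dependent histone genes are near-identical copies, so their single values are uncertain.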
